A study of Mus musculus with 40 samples.

Results

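The genes described here are 9 mouse genes of leukocyte adhesion and homing, Selplg, Cxcr4, Itgal, Itgam, Itgax, Itgb2, Itga4, Icam1 and Cd44. They were taken by symbol from a table of 45706 genes measured by RNA sequencing in 40 libraries, and all 9 were found, each in 1 row. Leukocytes leave the blood in steps: selectins on the vessel wall catch glycoproteins such as the Selplg product PSGL-1 and slow the cell, chemokines acting on receptors such as CXCR4 switch integrins to a binding state, and the integrins then hold the cell on ligands such as ICAM-1. The integrins of myeloid cells pair the β2 chain (Itgb2) with αL (Itgal), αM (Itgam) or αX (Itgax), while the α4 chain (Itga4) pairs with other β chains and binds VCAM-1 and fibronectin. CD44 is a receptor for hyaluronan that is carried by leukocytes as well as epithelial and stromal cells, and CXCR4 with its ligand CXCL12 is known for keeping neutrophils in the bone marrow.

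Neutrophils, monocytes, epithelial cells and stromal cells were sorted from colon tumors, the first 2 also from blood, of mice with tumors as well as healthy ones, and the last 2 also from healthy colon, giving 10 groups of 4 libraries each. Tumor-bearing mice carried Cdx2CreERT2 and Apc fl/fl, so that tamoxifen, given once at 25 mg/kg between 8 and 10 weeks of age, removed Apc where Cdx2 drives Cre, in the intestinal epithelium. Their strain labels join C57Bl6 to an Sv number that begins at Sv129 and goes up by 1 with each library, so the second strain is uncertain, whereas healthy mice are listed as C57Bl6 with no transgene and no agent, so tumor, strain, transgene and tamoxifen cannot be told apart in a comparison with healthy mice. Neutrophils were gated as CD45+ EpCAM- CD11b+ MHCII- Ly6C low Ly6G+, monocytes as CD45+ EpCAM- CD11b+ MHCII- Ly6C high Ly6G-, epithelial cells as CD45- EpCAM+ and stromal cells as CD45- EpCAM-. CD11b is the product of Itgam, so high Itgam in the myeloid groups was set by the gate and is no finding. Solid tissue was digested with enzymes and blood was not, which cannot be told apart from the site in a comparison of tumor with blood. Titles name the animals, and 1 library of blood neutrophils of tumor-bearing mice and 3 of healthy blood monocytes each pooled more than 1 animal. Many of these animals gave more than 1 library: tumor neutrophil and tumor monocyte libraries 2 to 4 share theirs, as do blood neutrophil and monocyte libraries 1 and 4 of tumor-bearing mice (and library 3 in part), and the animals of all 4 healthy neutrophil libraries were also pooled in healthy monocyte libraries 3 and 4. Tumor and blood libraries of the same cell type share an animal once in neutrophils (tumor 4 and blood 2) and once in monocytes (library 1 of both).

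Total counts ranged from 10717873 to 38002939 per library (median 16338416), and mitochondrial genes took 5.34% to 83.9% of them. Libraries of 3 groups stood apart from their replicates. Tumor neutrophil library 1 held summed epithelial markers of 154 RPKM (reads scaled by gene length and library size) against 12.6 to 35.1 in the other 3, and summed neutrophil markers of 1921 RPKM against 5990 to 12419. The labels number the 4 tumor stromal libraries 1, 2, 3 and 3, and the last, from another animal, is called library 4 here. Tumor stromal libraries 1 and 2 held epithelial markers of 232 and 136 RPKM and pan-leukocyte markers of 7.29 and 3.95 RPKM, against 64.8 and 77.3 RPKM of the latter in libraries 3 and 4. In all 4 tumor stromal libraries the fibroblast markers summed to 6.03 to 24.1 RPKM, against 359 to 2017 in healthy stroma, so the tumor stromal label is not backed by these markers. Healthy colon epithelial library 4 had the largest mitochondrial share and an epithelial marker sum of 72.2 RPKM, against 231 to 350 in the other 3. In bulk samples like these, fewer cells of a type and less RNA per cell cannot be told apart.

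Of the 9 genes, 8 had their highest mean RPKM in sorted myeloid cells and Icam1 had it in healthy colon stroma. The list was chosen for leukocyte genes, most groups are myeloid, and Itgam was set by the gate. The share over all genes was not counted, so the 8 describe the list and are no finding. Positions below are those of GENCODE M21 on the mm10 build. Groups were ordered for each gene by mean RPKM. Of the 81 pairs of neighbours in these orders, 11 had library values that did not overlap, and most neighbours did overlap. Neighbours are by the ordering the groups closest in mean. How often neighbours overlap in other genes was not counted, so the 11 describe these orders and are no finding. RPKM is the one scale used here to set a gene against another, since it is per length.

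Selplg (chr5:113818536-113832644, minus strand) encodes PSGL-1, the main leukocyte ligand of the selectins. Its RPKM was 41.7, 41.4, 44.1 and 43.0 in blood neutrophils from mice with tumors, 31.8, 35.6, 23.0 and 40.8 in healthy blood neutrophils and 5.77, 24.1, 23.2 and 27.3 in tumor neutrophils. In monocytes it was 17.6, 18.5, 11.9 and 13.4 in healthy blood, 11.3, 14.9, 7.42 and 6.79 in blood of tumor-bearing mice and 3.41, 6.54, 1.91 and 4.38 in tumors. Blood neutrophils of tumor-bearing mice were therefore highest with no overlap with the next group, and tumor monocytes were lowest of the 6 myeloid groups. Stromal libraries ranged from 0.0803 to 3.86 RPKM and epithelial libraries from 0.0104 to 0.0796.

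Cxcr4 (chr1:128588199-128592293, minus strand) encodes the receptor of CXCL12. Its RPKM was 45.4, 42.1, 65.3 and 51.6 in tumor monocytes, against 4.63, 12.3, 6.90 and 3.52 in blood monocytes of tumor-bearing mice and 9.59, 10.4, 14.9 and 6.82 in healthy blood monocytes. In neutrophils it was 71.0, 50.5, 39.5 and 40.4 in healthy blood, 12.3, 21.4, 31.7 and 25.5 in blood of tumor-bearing mice and 22.2, 52.8, 45.8 and 33.1 in tumors. Tumor monocytes and healthy blood neutrophils thus shared the top of the order, and no 2 neighbours among the 10 groups were without overlap. Cxcl12 itself was found in stroma, at 27.1 ± 16.01 RPKM (SD, n = 4) in healthy colon and 5.32 ± 6.53 in tumors, with means of at most 0.116 RPKM in the other 8 groups.

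Itgb2 (chr10:77530252-77565708), the shared β2 chain, was highest in blood neutrophils of tumor-bearing mice, at 88.8, 85.7, 93.9 and 86.1 RPKM. Healthy blood neutrophils had 70.5, 86.2, 56.3 and 74.1 RPKM and tumor neutrophils 17.5, 58.3, 61.0 and 73.0. Monocyte libraries ranged from 53.8 to 83.2 RPKM in healthy blood, 35.8 to 73.5 in blood of tumor-bearing mice and 33.5 to 41.6 in tumors, and the lowest myeloid value was that of tumor neutrophil library 1. Epithelial libraries did not exceed 0.215 RPKM.

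Itgam (chr7:128062640-128118491), the αM chain and a gene of the gate, was at 144, 123, 109.9 and 128 RPKM in blood neutrophils of tumor-bearing mice, 94.2, 91.1, 73.1 and 93.7 in healthy blood neutrophils and 31.1, 80.5, 146 and 156 in tumor neutrophils. A gene model on the same strand, Gm49368, lies over it and shares most of its transcript sequence (67.2% of its 31-base words), so its counts are uncertain to that extent. Itgal (chr7:127296260-127335138), the αL chain of LFA-1, was at 74.2, 66.3, 50.1 and 53.5 RPKM in healthy blood neutrophils, 32.5, 43.6, 61.3 and 53.5 in those of tumor-bearing mice and 10.2, 30.1, 32.7 and 38.9 in tumors. In monocytes it was at 41.3, 49.2, 46.1 and 37.3 RPKM in healthy blood, 47.6, 74.7, 21.9 and 23.1 in blood of tumor-bearing mice and 18.6, 11.9, 19.3 and 20.7 in tumors. Both chains were in every myeloid library above Itgax.

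Itgax (chr7:128129547-128150657), the αX chain (CD11c) often used as a marker of dendritic cells, was at 6.28, 6.83, 6.13 and 8.09 RPKM in tumor monocytes and at 0.494, 0.806, 0.457 and 0.334 in blood monocytes of tumor-bearing mice. Healthy blood monocytes had 2.80, 1.44, 2.95 and 0.430 RPKM. In neutrophils it was at 5.52, 8.28, 6.39 and 6.11 RPKM in healthy blood, 1.04, 1.38, 2.23 and 2.42 in blood of tumor-bearing mice and 2.45, 4.33, 4.89 and 7.22 in tumors. In both cell types the lowest mean was therefore that of the blood of tumor-bearing mice. Itgax shares 10.7% of its 31-base words with the αD gene Itgad, whose group means did not exceed 0.51 RPKM.

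Itga4 (chr2:79255426-79333123) had a higher mean RPKM in monocytes than in neutrophils of the same site. Its RPKM was 29.2, 25.7, 35.0 and 30.5 in healthy blood monocytes, 28.2, 25.8, 26.8 and 27.4 in those of tumor-bearing mice and 12.3, 6.52, 9.88 and 7.66 in tumor monocytes. Healthy blood neutrophils had 19.96, 18.7, 17.7 and 12.0 RPKM, those of tumor-bearing mice 6.43, 8.22, 11.1 and 8.57, and tumor neutrophils 1.03, 6.62, 2.32 and 3.05. The 8 blood monocyte libraries were all above the 8 blood neutrophil libraries on the RPKM scale.

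Icam1 (chr9:21015985-21028817) encodes the endothelial, stromal and leukocyte ligand of the integrins αLβ2 and αMβ2. It was at 35.8, 30.1, 28.6 and 62.8 RPKM in healthy stroma and 6.45, 5.72, 41.5 and 47.7 in tumor stroma. Tumor neutrophils had 17.6, 38.1, 21.9 and 24.4 RPKM, next to 0.178, 0.264, 0.675 and 0.212 in blood neutrophils from mice with tumors and 0.674, 2.10, 1.36 and 1.47 in healthy blood neutrophils. Tumor monocytes had 27.2, 16.2, 17.6 and 15.3 RPKM, blood monocytes of tumor-bearing mice 6.91, 14.6, 3.55 and 4.24, and healthy blood monocytes 7.60, 4.08, 6.11 and 5.89. Sorted myeloid cells of the tumor were thus in the range of colon stroma, and blood neutrophils were the myeloid cells with the least. A gene on the other strand, Gm47079, overlaps Icam1, and whether counting used strand is not given in the sources used here.

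Cd44 (chr2:102811141-102901665, minus strand), the hyaluronan receptor, had the highest mean RPKM of the members in both tumor myeloid groups, in healthy blood neutrophils and in epithelium. Tumor monocytes had 165, 147, 264 and 208 RPKM and tumor neutrophils 63.2, 229, 177 and 215. Blood monocytes had 48.3, 90.0, 43.2 and 41.9 RPKM in tumor-bearing and 45.7, 57.8, 62.2 and 56.2 in healthy mice, and blood neutrophils 95.8, 116, 153 and 129.8 RPKM and 180.3, 104, 100.3 and 116 RPKM. Cd44 was also the member found in epithelium, at 13.7, 12.9, 19.2 and 16.3 RPKM in tumors and 13.5, 13.6, 12.3 and 2.10 in healthy colon. On a scale from TMM normalization of all 40 libraries together, Cd44 was highest in tumor neutrophils and Cxcr4 in healthy blood neutrophils, and 33 of the 90 group means moved by over 1 SD. The tests below instead normalized the libraries of each comparison by themselves.

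**Figure D1:**
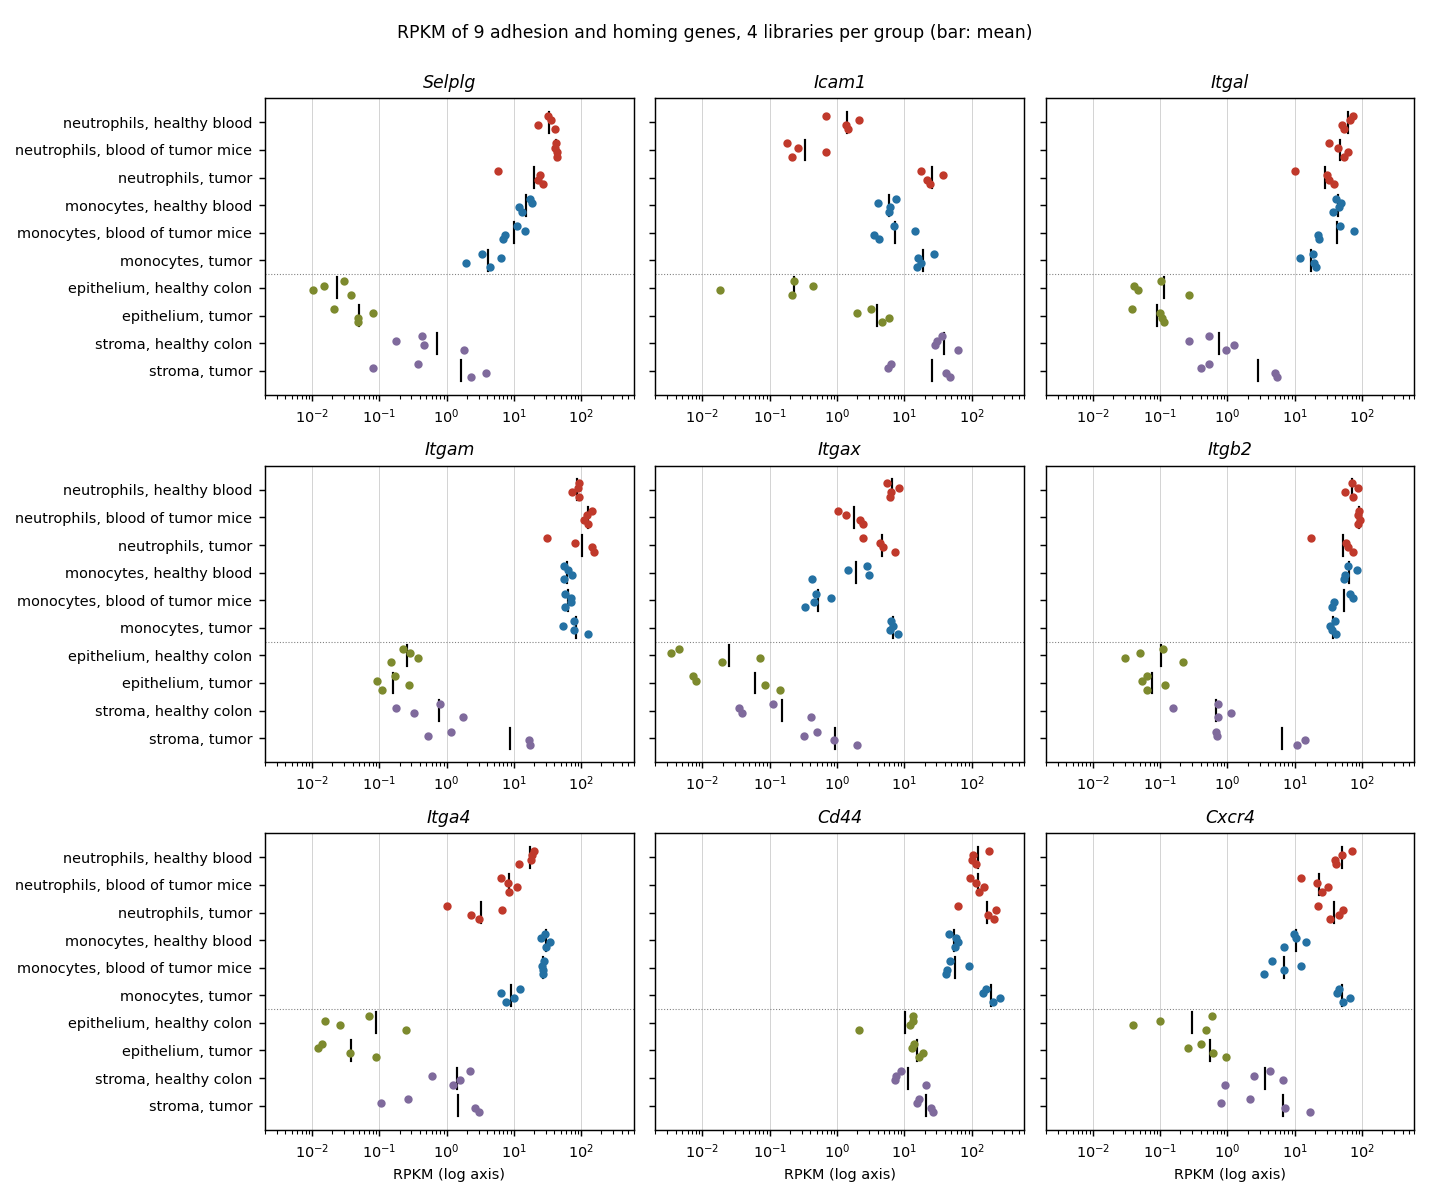
RPKM on a log axis of the 9 genes in the 10 groups, with a point per library and a bar at the mean of 4 libraries. Tumor neutrophils and monocytes sit at 15.3 to 38.1 RPKM for Icam1, above all 16 blood libraries, and epithelial libraries lie at the low end of every panel but Icam1 in tumors and Cd44.

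Tumor neutrophils were compared with blood neutrophils of tumor-bearing mice, to ask which genes differ once the cells are in the tumor. Icam1 rose in tumor neutrophils by 6.43 ± 0.70 on the log2 scale (standard error, 4 against 4 libraries; edgeR adjusted p = 5.6e-04). The 4 tumor libraries lay between 17.6 and 38.1 RPKM and the 4 blood libraries, which held 34.5 to 89.1 counts each, between 0.178 and 0.675. A gene is called here at an adjusted p under 0.05 with an absolute log2 fold change above 1.5. Icam1 was the 1 called member of 9, where 16.3% of the 13674 genes tested were called in this comparison, and the median log2 fold change was -0.20 over the members and 0.11 over all genes.

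The other 8 members did not pass. Itgax came nearest, at 1.49 ± 0.47 (edgeR adjusted p = 0.0522), with libraries of both groups not overlapping. Without tumor neutrophil library 1, which held the epithelial signal, Itgax passed at 1.77 (edgeR adjusted p = 0.0166), and without library 2 Itga4 passed at -2.15 (edgeR adjusted p = 0.00898) where all libraries gave -1.10 (edgeR adjusted p = 0.263). Cxcr4 had 0.93 and Cd44 0.64, while the selectin ligand Selplg had -0.92 and the integrin chains Itgal, Itgb2 and Itgam -0.65, -0.61 and -0.20, with edgeR adjusted p of 0.223 to 0.816. On RPKM, 4 of the 9 did not overlap between the groups, Icam1 and Itgax with the higher values in the tumor and Selplg and Itgb2 with the lower, where 27.4% of the genes tested did not overlap.

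Other cells moved with this comparison. Epithelial markers summed to 12.6 to 154 RPKM in tumor neutrophils and 0.0967 to 0.252 in blood, endothelial markers to 0.290 to 5.29 against 0.104 to 0.232 and fibroblast markers to 1.80 to 4.94 against 0.304 to 0.926. Neutrophil markers were lower in the tumor, at 1921 to 12419 against 15544 to 20241 RPKM, and mitochondrial genes took 16.998% to 37.5% of the counts in tumor and 9.36% to 16.8% in blood libraries. Platelet markers were also lower in the tumor, at 0.142 to 1.61 against 2.13 to 40.3 RPKM. The part of these in the Icam1 result was not tested. Icam1 itself was at 2.00 to 6.02 RPKM in tumor epithelial and 5.72 to 47.7 in tumor stromal libraries. With tumor neutrophil library 1 left out the Icam1 call was kept, as it was with each of the other 7 libraries left out, at 5.81 to 7.06.

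In monocytes the same comparison of tumor with blood called 4 of the 9 members, all higher in tumors, where 11.7% of 15280 genes were called. Itgax rose by 3.95 ± 0.32 (edgeR adjusted p = 2.6e-05), Cxcr4 by 3.16 ± 0.41 (edgeR adjusted p = 5.6e-04), Cd44 by 2.08 ± 0.32 (edgeR adjusted p = 0.00158) and Icam1 by 1.64 ± 0.44 (edgeR adjusted p = 0.0274) on the log2 scale. For each of the 4, the lowest tumor library was above the highest blood library: 6.13 against 0.806 RPKM for Itgax, 42.1 against 12.3 for Cxcr4, 147 against 90.0 for Cd44 and 15.3 against 14.6 for Icam1. An integrin chain, a chemokine receptor, a hyaluronan receptor and an integrin ligand were thus higher together.

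Itga4 passed the adjusted p and not the fold, at -1.30 ± 0.24 (edgeR adjusted p = 0.00448). Selplg had -1.09 (edgeR adjusted p = 0.0610), Itgal -0.98, Itgb2 -0.25 and Itgam 0.63 (edgeR adjusted p of 0.113 to 0.543 for the last 3). On RPKM, 7 of the 9 members did not overlap between tumor and blood monocytes, all but Itgam and Itgb2, where 27.2% of the genes tested did not, and the median log2 fold change was 0.63 over the members and -0.03 over all genes. Of the β2 integrin chains, the αX partner was therefore called and the β2, αL and αM chains were not.

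The Icam1 call in monocytes was lost under 2 of 10 alternatives, with all 40 libraries in 1 fit (1.61, edgeR adjusted p = 0.0908) and on log2(RPKM + 1), where limma gave 1.41, short of the fold. It was also lost without tumor library 1 (1.40, edgeR adjusted p = 0.0729) and without blood library 1 (1.58, 0.0868), 3 (1.40, 0.0653) or 4 (1.44, 0.0770), whereas Itgax, Cd44 and Cxcr4 were called with any of the 8 libraries left out. Epithelial markers summed to 1.54 to 31.4 RPKM in tumor monocytes and 0.339 to 0.661 in blood monocytes. Monocyte markers were lower in the tumor, at 154 to 181 against 276 to 434 RPKM, as were neutrophil markers, at 36.1 to 69.0 against 95.7 to 269. Dendritic cell markers summed to 0.702 to 3.62 RPKM in tumor and 0.858 to 2.10 in blood monocytes, and macrophage markers to 13.6 to 29.8 and 13.3 to 23.6. The part of these markers in the 4 calls was not tested.

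An interaction term over 16 libraries asked if neutrophils and monocytes differ in how far tumor stands from blood. Icam1 changed more in neutrophils, by 4.68 ± 0.80 on the log2 scale (edgeR adjusted p = 0.00427), and Itgax more in monocytes, with a difference of -2.56 ± 0.59 (edgeR adjusted p = 0.0211). Those 2 members were called where 3.95% of 17465 genes were. Cxcr4 missed the threshold at -2.35 ± 0.66 (edgeR adjusted p = 0.0542), and Cd44 had -1.54 ± 0.64 (edgeR adjusted p = 0.172). The Icam1 difference was called with any of the 16 libraries left out. That of Itgax was lost with all 40 libraries in 1 fit (-2.59, edgeR adjusted p = 0.104), on log2(RPKM + 1), where limma gave -1.35, and without blood monocyte library 1 (-2.50, edgeR adjusted p = 0.0510) or blood neutrophil library 4 (-2.35, edgeR adjusted p = 0.0505). Cxcr4 was called without blood monocyte library 2 (-2.81, edgeR adjusted p = 0.0303) or tumor neutrophil library 2 (-2.82, edgeR adjusted p = 0.0135). It was also called by limma-voom (-2.62, adjusted p = 0.0372), by DESeq2 (-2.20, adjusted p = 0.0360) by edgeR with the replicate number as a block (-2.65, adjusted p = 0.0324) or with at least 10 counts in every library (-2.21, adjusted p = 0.0205), and by limma on log2(RPKM + 1) (-2.10, adjusted p = 0.0262) and log2(RPKM + 0.1) (-2.26, adjusted p = 0.0274).

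**Figure D2:**
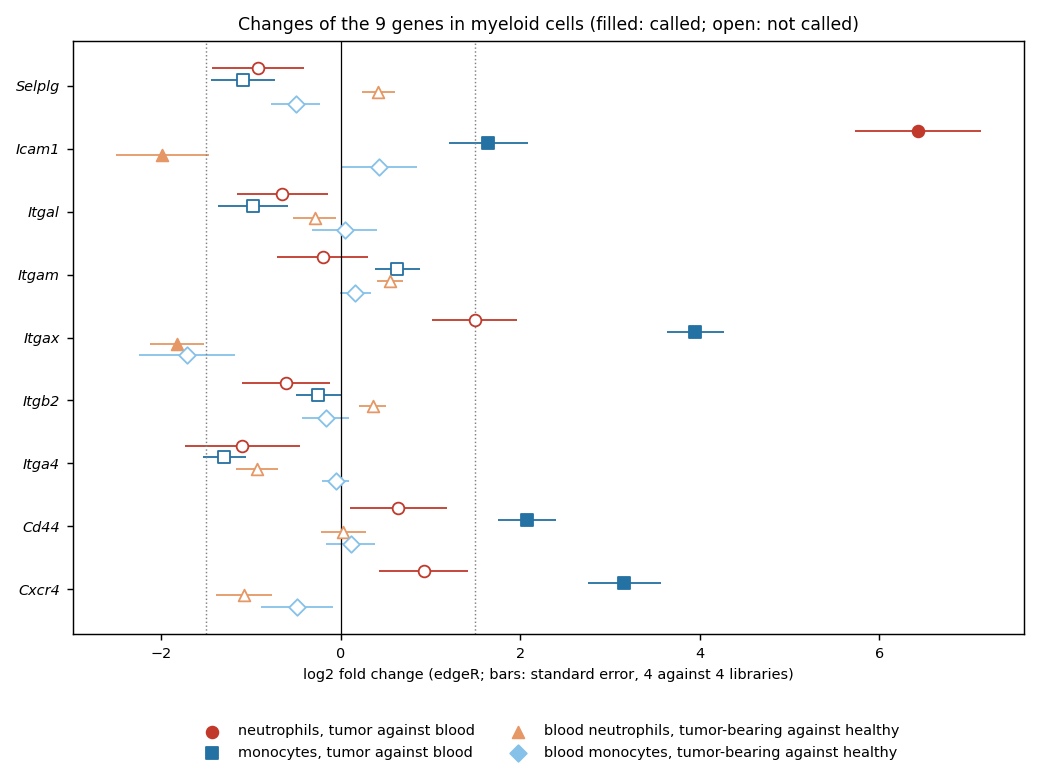
Log2 fold changes (horizontal axis, edgeR, bars are standard errors) of the 9 genes in 4 comparisons of myeloid cells, with filled symbols for called genes, open ones for the rest and dotted lines at -1.5 and 1.5. Icam1 in neutrophils stands farthest right at 6.43, followed by Itgax in monocytes at 3.95.

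The 4 genes that were called in tumor monocytes are given here with the 250 bases before their RefSeq start (GRCm38.p6), read in the direction of the gene, since promoters are where shared regulation of such a group would be looked for. RefSeq promoters were matched for 6 of the 9 members. Capitals mark matches on either strand to a κB-type word (GGNNNTTCC), an AP-1 word (TGANTCA), the TATA box (TATAAA) and the core of the PU.1 site (GAGGAA).
Icam1 promoter, chr9:21015690-21015939, plus strand: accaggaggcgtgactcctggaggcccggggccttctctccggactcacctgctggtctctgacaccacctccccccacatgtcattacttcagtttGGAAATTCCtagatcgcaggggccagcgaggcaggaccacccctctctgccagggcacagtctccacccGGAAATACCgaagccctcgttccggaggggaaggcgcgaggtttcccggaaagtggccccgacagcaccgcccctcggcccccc
Itgax promoter, chr7:128129300-128129549, plus strand: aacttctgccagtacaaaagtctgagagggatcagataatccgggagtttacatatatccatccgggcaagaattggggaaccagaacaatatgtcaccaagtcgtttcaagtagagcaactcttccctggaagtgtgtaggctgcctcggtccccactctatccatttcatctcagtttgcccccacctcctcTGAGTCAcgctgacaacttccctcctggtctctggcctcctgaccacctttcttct
Cd44 promoter, chr2:102901666-102901915, minus strand: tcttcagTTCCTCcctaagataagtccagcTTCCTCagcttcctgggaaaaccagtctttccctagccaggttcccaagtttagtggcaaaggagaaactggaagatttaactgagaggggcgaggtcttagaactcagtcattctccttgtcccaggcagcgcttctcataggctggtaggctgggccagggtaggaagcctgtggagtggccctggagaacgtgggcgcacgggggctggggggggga
Cxcr4 promoter, chr1:128592300-128592549, minus strand: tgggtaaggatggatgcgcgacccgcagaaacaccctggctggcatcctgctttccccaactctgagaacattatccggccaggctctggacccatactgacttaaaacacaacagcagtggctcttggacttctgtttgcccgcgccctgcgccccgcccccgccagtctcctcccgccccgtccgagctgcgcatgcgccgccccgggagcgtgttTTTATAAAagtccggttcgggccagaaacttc
Positions are counted back from -1, the base before the start.

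In these windows Icam1 held 2 κB-type words, at -153 to -145 and -84 to -76, and the other 5 members with a promoter held none. Itgax held an AP-1 word at -56 to -50, Cd44 held 2 PU.1 cores at -243 to -238 and -220 to -215, and Cxcr4 held the TATA word on both strands in 1 overlapping run at -32 to -25. Of 32851 RefSeq promoters of the same length, 15.7% held a κB-type word, 6.75% an AP-1 word, 23.3% a PU.1 core and 12.4% a TATA word. The 4 genes that rose together in tumor monocytes shared none of these 4 words in this window. A STAT word (TTCNNNGAA, in 7.02% of promoters) lay at -42 to -34 of Icam1, and a GC box (GGGCGG, in 32.7%) was held by 4 of the 6 members, Icam1 and Cxcr4 among them. A match of letters is a description and not a binding site.

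Blood neutrophils of tumor-bearing mice were compared with those of healthy mice to see what is already different outside the tumor. Both called members of 9 were lower in tumor-bearing mice, where 4.01% of 13360 genes were called. Itgax fell by 1.82 ± 0.30 on the log2 scale (edgeR adjusted p = 0.00854), from 5.52 to 8.28 RPKM in healthy libraries to 1.04 to 2.42. Icam1 fell by 1.99 ± 0.52 (edgeR adjusted p = 0.0476) from 0.674 to 2.10 RPKM to 0.178 to 0.675, ranges that just overlap. For Itgax the 4 healthy libraries lay well above the 4 others, and the call was made with any of the 8 libraries left out. The Icam1 call was lost with any of 6 libraries left out, which were tumor-bearing 1 (-1.76, edgeR adjusted p = 0.120), 2 (-1.85, 0.134) and 4 (-1.82, 0.108) and healthy 2 (-1.86, 0.106), 3 (-1.94, 0.125) and 4 (-1.91, 0.0956).

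Itga4 passed the adjusted p and not the fold, at -0.94 ± 0.23 (edgeR adjusted p = 0.0408). Cxcr4, which holds neutrophils in the marrow, had -1.08 ± 0.31 (edgeR adjusted p = 0.0712), with healthy libraries at 39.5 to 71.0 RPKM and those of tumor-bearing mice at 12.3 to 31.7. Itgam had 0.55 (edgeR adjusted p = 0.0543), Selplg 0.42, Itgb2 0.35, Itgal -0.29 and Cd44 0.03. On RPKM, 5 of the 9 did not overlap, where 14.1% of the genes tested did not. Values of Itgax, Itga4 and Cxcr4 were the lower and those of Itgam and Selplg the higher in tumor-bearing mice, and of these 5 only Itgax was called. The summed neutrophil markers, at 15544 to 20241 RPKM in tumor-bearing and 3748 to 8561 in healthy mice, and the platelet markers, at 221 and 225 RPKM in healthy libraries 1 and 2 and at most 40.3 in the other 6, moved beside these values. So did the dendritic cell markers, at 0.472 to 0.898 RPKM in tumor-bearing and 1.47 to 3.19 in healthy mice, the macrophage markers, at 2.22 to 4.19 against 5.35 to 7.58, and the endothelial markers, at 0.104 to 0.232 against 0.323 to 0.492. Their part in the Itgax and Icam1 calls was not tested.

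In blood monocytes the comparison of tumor-bearing with healthy mice called 0 of the 9 members (edgeR), where 0.209% of 15313 genes were called. An unadjusted p under 0.05 was found for 1 member, and the share of all genes with one was not counted. limma-voom called 0 members and DESeq2 called 1, Itgax. By edgeR Itgax had -1.71 ± 0.53 (adjusted p = 0.289), with library values of 0.334 to 0.806 RPKM in tumor-bearing and 0.430 to 2.95 in healthy mice. The other 8 members lay between -0.50 and 0.43, and the library values of all 9 overlapped on RPKM, where those of 7.36% of the genes tested did not.

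Neutrophils were set against monocytes of healthy blood to see how the genes divide the 2 cell types. Monocyte libraries 1 and 2 came from animals with no neutrophil library, and monocyte libraries 3 and 4 pooled animals of the neutrophil libraries. The animal was not used as a block here. In healthy mice 4 of the 9 members were called, all higher in neutrophils, where 37.1% of 15033 genes were called. Cxcr4 was higher by 3.05 ± 0.27, Itgax by 2.60 ± 0.48, Cd44 by 1.95 ± 0.23 and Selplg by 1.87 ± 0.21 on the log2 scale, with edgeR adjusted p of 2.5e-05 to 0.0015. The integrin chains Itgam (1.29), Itgal (1.26) and Itgb2 (0.93) and, in the other direction, Icam1 (-1.30) passed the adjusted p and not the fold, with edgeR adjusted p of 1.4e-04 to 0.00875. Under TMM, neutrophils of healthy blood thus had more Selplg, Cd44, Cxcr4 and Itgax transcript, and monocytes had more Icam1, short of the fold. The 4 of 9 called are near the 37.1% of all genes, so the count is not particular to this list.

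Scaling mattered in this comparison. The median of all genes was -0.07 under TMM and -0.63 on log2(RPKM + 0.1), so RPKM places all neutrophil values lower relative to monocytes. Itga4 was at -0.04 ± 0.19 under TMM (edgeR adjusted p = 0.875) and at -0.83 on log2(RPKM + 0.1), its healthy libraries of 12.0 to 19.96 RPKM in neutrophils lying below those of 25.7 to 35.0 in monocytes. The Selplg and Cd44 calls were lost on both RPKM scales, at 1.04 and 1.13 on log2(RPKM + 1) and 1.09 and 1.14 on log2(RPKM + 0.1). On log2(RPKM + 1) 2 members were called, Icam1 and Cxcr4, and on log2(RPKM + 0.1) 3, with Itgax. RPKM values of 8 of the 9 members did not overlap, all but Itgb2, where 52.7% of the genes tested did not. Mitochondrial genes took 5.34% to 14.5% of the counts in these neutrophil libraries and 18.7% to 31.8% in the monocyte libraries, and their part was not tested.

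Between tumor neutrophils and tumor monocytes 1 of the 9 members was called, where 7.45% of 15003 genes were called. Selplg was higher in neutrophils by 3.00 ± 0.61 on the log2 scale (edgeR adjusted p = 0.0137), with 5.77 to 27.3 RPKM against 1.91 to 6.54 in monocytes, and the low neutrophil value was that of library 1. Itgal had 1.29, Itgb2 1.12, Icam1 1.07 and Itgam 0.89, with edgeR adjusted p of 0.153 to 0.355. Itgax, Cxcr4 and Cd44, which were called in healthy blood, had 0.06, 0.23 and 0.46 here, and Itga4 had -0.73. Whether tumor and healthy blood differ in this was not tested. The library values of all 9 overlapped on RPKM, where those of 20.6% of the genes tested did not.

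Libraries 2, 3 and 4 of these 2 groups came from the same 3 animals. With the animal as a block, Selplg stayed called and Itgal was added, at 1.70 (edgeR adjusted p = 0.0460). Without tumor neutrophil library 1 Itgal was also called, at 1.53 (edgeR adjusted p = 0.00673). The Selplg call was lost without tumor monocyte library 1 (2.91, edgeR adjusted p = 0.0631), 3 (2.78, 0.0543) or 4 (3.00, 0.0633).

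The share of each α chain in the sum of Itgal, Itgam and Itgax does not depend on how libraries are scaled. Itgam took 56.7% ± 3.11 (SD, n = 4) of the summed RPKM in healthy blood neutrophils, 71.8% ± 7.42 in those of tumor-bearing mice and 74.5% ± 4.58 in tumor neutrophils. In monocytes it took 57.6% ± 2.39 in healthy blood, 62.5% ± 13.1 in blood of tumor-bearing mice and 76.7% ± 3.05 in tumors. The healthy values of 54.2% to 61.1% and 55.5% to 59.9% lay below every tumor library, at 70.1% to 79.5% in neutrophils and 74.3% to 81.2% in monocytes. Blood libraries of tumor-bearing mice overlapped the tumor libraries, at 63.4% to 81.1% in neutrophils and 48.4% to 76.2% in monocytes. The Itgam counts, uncertain through Gm49368, enter all of these shares.

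Itgal moved the other way, from 39.1% ± 3.24 to 27.2% ± 7.09 and 21.6% ± 3.80 in neutrophils and from 40.6% ± 2.27 to 37.0% ± 13.1 and 16.6% ± 2.27 in monocytes, in the order healthy blood, blood of tumor-bearing mice and tumor. Itgax was the small part, at 4.27% ± 0.866, 1.00% ± 0.359 and 3.90% ± 1.23 in neutrophils and 1.74% ± 1.08, 0.480% ± 0.0562 and 6.67% ± 1.84 in monocytes. Both cell types thus had their lowest Itgax share in the blood of tumor-bearing mice. The ratio of Itgb2 to the sum of the 3 chains was 0.461 ± 0.0512, 0.505 ± 0.0296 and 0.401 ± 0.0769 in neutrophils and 0.600 ± 0.110, 0.497 ± 0.0933 and 0.365 ± 0.0800 in monocytes.

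**Figure D3:**
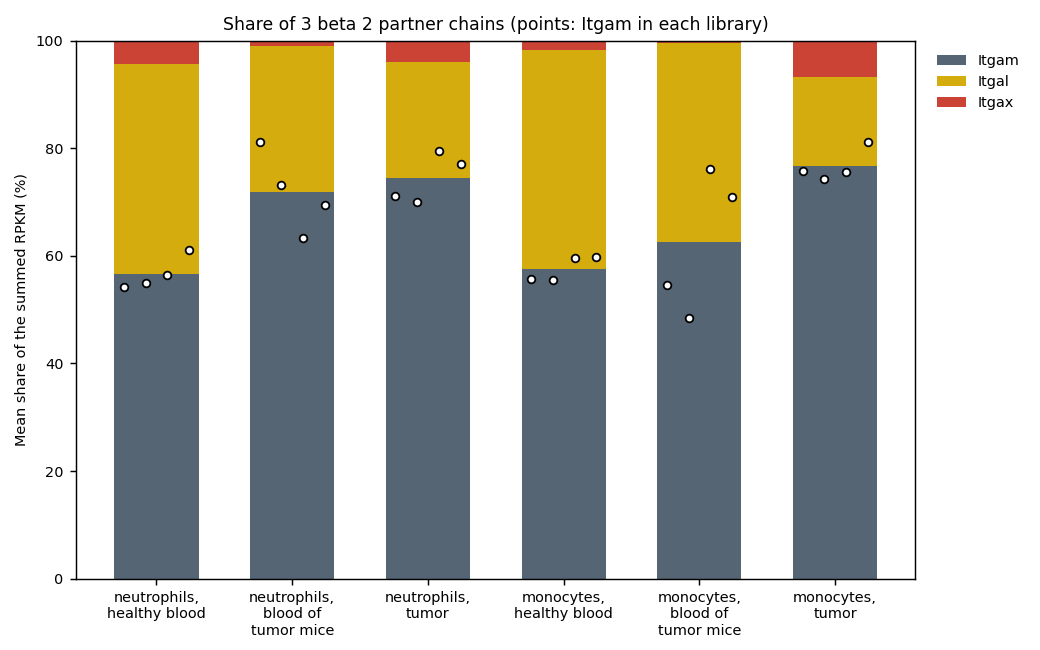
Mean share in percent (vertical axis) of Itgam, Itgal and Itgax in their summed RPKM in the 6 myeloid groups of 4 libraries each, with a point for the Itgam share of each library. The Itgam share is 56.7% and 57.6% in healthy blood and 74.5% and 76.7% in tumors.

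In epithelial cells, Icam1 was higher in tumors by 3.00 ± 0.78 on the log2 scale (edgeR adjusted p = 0.0194), with 3.17, 2.00, 6.02 and 4.60 RPKM against 0.233, 0.444, 0.0183 and 0.215 in healthy colon. Icam1 was the 1 member of 9 whose groups did not overlap on RPKM, where 23.0% of the genes tested did not, and its lowest healthy library held 2.31 counts. Of the 7 members that passed the filter on low counts 2 were called, where 15.4% of 16085 genes were, and Selplg and Itgax were not tested. The other called member was Itgam, at -1.53 ± 0.45 (edgeR adjusted p = 0.0353), with 0.0931 to 0.272 RPKM in tumors and 0.151 to 0.374 in healthy colon. These values overlapped and rested on 36.4 to 152 counts per library. Neutrophil markers summed to 0.969 to 5.09 RPKM in tumor and 6.76 to 12.5 in healthy epithelial libraries, beside the Itgam difference, and their part was not tested.

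The Icam1 call was lost without tumor library 4 (2.91, edgeR adjusted p = 0.0516) or healthy library 2 (2.97, edgeR adjusted p = 0.0515). The Itgam call was lost without tumor library 1 (-1.66, edgeR adjusted p = 0.0598), 2 (-1.39, 0.0806), 3 (-1.70, 0.0521) or 4 (-1.37, 0.103) and without healthy library 3 (-1.61, 0.0565) or 4 (-1.08, 0.0881). TMM over all 40 libraries together placed healthy library 4, with its 83.9% of mitochondrial counts, 4.40 times higher than RPKM did. The factor within this comparison alone is not given here. Without it Itgal went from -2.21 to 0.15, Itgb2 from -2.21 to -0.16, Itga4 from -3.28 to -0.36 and Cxcr4 from -0.68 to 0.71, none of them called, and Icam1 stood at 3.79 (edgeR adjusted p = 0.00729). Endothelial markers summed to 6.79 to 8.48 RPKM in tumor and 0.0220 to 0.491 in healthy epithelial libraries, beside the Icam1 difference, and their part was not tested. Cd44, the epithelial member, had 0.09 ± 0.19 (edgeR adjusted p = 0.779).

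In stromal cells 0 of the 9 members were called (edgeR), where 8.40% of 19081 genes were. An unadjusted p under 0.05 was found for 5 members, and the share of all genes with one was not counted. limma-voom called 1, Itgax, and DESeq2 called 4, Itgal, Itgam, Itgax and Itgb2. By edgeR, Itgam had 3.80 ± 1.19, Itgb2 3.57 ± 1.05, Itgax 2.92 ± 0.92, Itgal 2.23 ± 0.86 and Cd44 1.22 ± 0.41, with adjusted p of 0.0656 to 0.146. The 4 tumor libraries fell apart into pairs: Itgam was at 1.17 and 0.520 RPKM in libraries 1 and 2 and 16.6 and 17.2 in libraries 3 and 4, Itgb2 at 0.686 and 0.702 against 14.2 and 10.6, and Itgal at 0.525 and 0.409 against 5.06 and 5.45. Healthy stroma had 0.178 to 1.76 RPKM of Itgam, 0.156 to 1.13 of Itgb2 and 0.267 to 1.25 of Itgal, so libraries 1 and 2 were within or near the healthy range. On RPKM the values of all 9 members overlapped between healthy and tumor stroma, where those of 21.5% of the genes tested did not.

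The same pairs held for Icam1, Selplg and Itga4, at 6.45 and 5.72 against 41.5 and 47.7 RPKM, 0.375 and 0.0803 against 3.86 and 2.34, and 0.264 and 0.108 against 2.63 and 3.01. Libraries 3 and 4, with the higher members, also had the higher sums of pan-leukocyte markers (64.8 and 77.3 against 7.29 and 3.95 RPKM), neutrophil markers (1567 and 530.5 against 41.8 and 8.59) and endothelial markers (110.1 and 114 against 7.71 and 6.91), and the lower epithelial sums. Mitochondrial genes took 55.4% and 62.9% of the counts in libraries 1 and 2 and 27.4% and 24.8% in libraries 3 and 4, against 15.6% to 24.9% in healthy stroma. The part of these markers and of the mitochondrial share in the members' values was not tested. With libraries 1 and 2 left out, a choice made after seeing the data, Itgam (4.75, edgeR adjusted p = 0.0178), Itgb2 (4.49, 0.00859) and Itgal (3.11, 0.0179) were called, and Icam1 went from -0.35 to 0.46 with no call. With healthy library 4 left out Itgax (4.24, 0.0192) and Cd44 (1.77, 0.00953) were called, and without tumor library 1 Itgb2 (3.95, 0.0436) was.

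**Figure D4:**
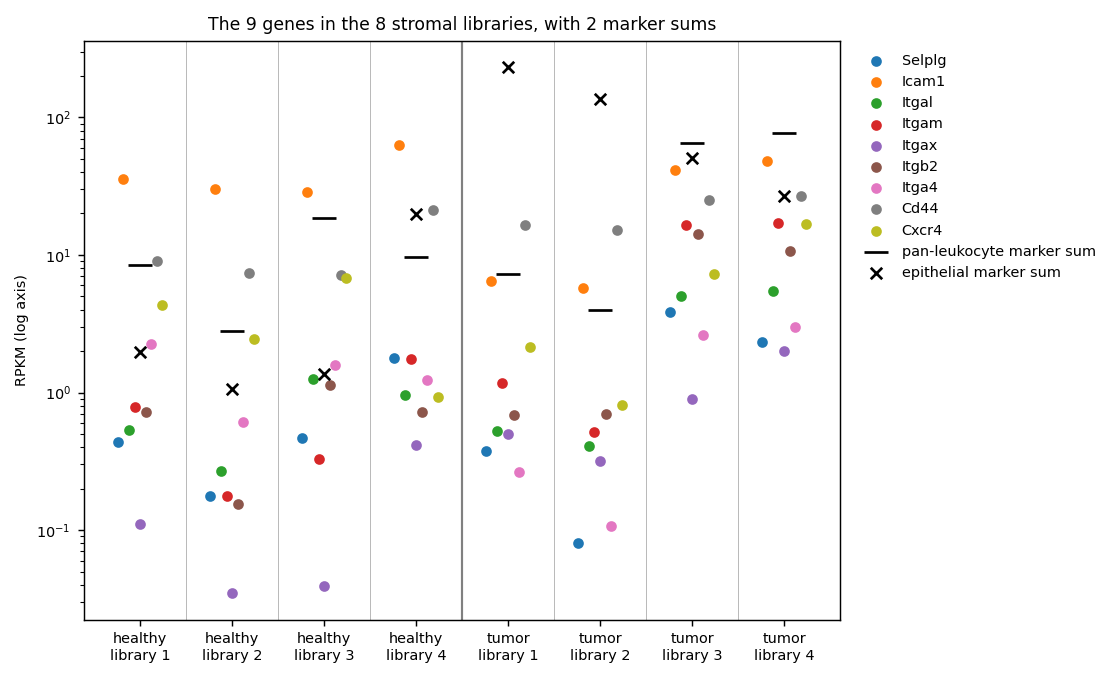
RPKM on a log axis of the 9 genes in the 4 healthy and 4 tumor stromal libraries, with the summed RPKM of pan-leukocyte and epithelial markers as black symbols. Tumor libraries 1 and 2 have leukocyte sums of 7.29 and 3.95 RPKM and low β2 chains, and libraries 3 and 4 have 64.8 and 77.3 and high ones.

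Other adhesion genes, 55 in 6 lists, were set beside the members. Between tumor and blood neutrophils, 45 were tested, of which 8 were higher and 3 lower in tumors. Of all genes tested in this comparison, 16.3% were called. Those that changed most were Spp1 (6.11), a CD44 and integrin ligand, the extracellular matrix gene Fn1 (5.10) and the endothelial cadherin Cdh5 (4.95), against Rasgrp2 (-2.18) and Fermt3 (-1.76), which switch integrins on, and the β3 chain Itgb3 (-2.18). Of the 12 integrin activation genes tested 1 was higher and 2 lower, with a median of -0.73, and of the 10 genes of selectins and their ligands 0 were called by edgeR. An unadjusted p under 0.05 was found for 1 of these 10, and the share of all genes with one was not counted. Cdh5 is itself one of the endothelial markers whose sum was higher in tumor neutrophils. Platelet markers summed to 0.142 to 1.61 RPKM in tumor and 2.13 to 40.3 in blood neutrophils, beside the genes that were lower. Their part in Rasgrp2, Fermt3 and Itgb3 was not tested.

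Between tumor and blood monocytes 47 were tested, with 7 higher and 4 lower, where 11.7% of all genes tested were called. Ackr3 (6.02), another receptor of CXCL12, Cdh5 (5.79) and Spp1 (5.58) were higher, and Rasgrp2 (-2.81), the integrin activator Rassf5 (-2.24) and the sialomucin Spn (-1.55) were lower. Spp1 was higher and Rasgrp2 lower in the tumor cells of both types, whose libraries come in part from the same animals. In the interaction 3 of 52 were called, where 3.95% of all genes tested were. All 3 had a larger change in neutrophils, and they were Fn1 (5.47), Itga1 (4.35) and Itgb1 (2.32).

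In the blood of tumor-bearing against healthy mice, 2 of 46 listed genes were called in neutrophils, where 4.01% of all genes tested were. Both were lower, the αD chain Itgad (-1.91) and the fucosyltransferase Fut4 (-1.81), which makes selectin ligands. In monocytes edgeR called 0 of 45, where 0.209% of all genes tested were called, and 12 had an unadjusted p under 0.05. The share of all genes at that unadjusted p was not counted, so the 12 cannot be set against the 0.209%. Healthy neutrophils against monocytes gave 6 higher and 7 lower of 46, where 37.1% of all genes tested were called. Higher were Selp (5.75), Sele (5.46) and Gcnt1 (3.51), whose product builds the core of selectin ligands, against Fn1 (-7.78), Itga1 (-5.90) and Cd99l2 (-3.34). Platelet markers summed to 1.73 to 225 RPKM in these neutrophil and 1.57 to 113 in these monocyte libraries. Endothelial markers summed to 0.323 to 0.492 and 1.26 to 3.10 RPKM. The part of these markers was not tested. In tumors 6 of 47 were higher and 4 lower in neutrophils, where 7.45% of all genes tested were called. Among them were the selectin Selp (3.29) and the hyaluronan receptor Hmmr (3.40), against Fn1 (-4.85), Itgb5 (-2.65) and Itgb7 (-2.44). Epithelial cells gave 7 higher and 6 lower of 43 and stromal cells 3 higher and 2 lower of 54. Of all genes tested, 15.4% were called in epithelial and 8.40% in stromal cells. Spp1 was higher in tumors in both (5.34 and 4.91).

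Patterns over the 10 group means of log2(RPKM + 1) were compared with those of 4889 genes at 5 RPKM or more in some group. Itgal was most like Ptprc (Pearson r = 0.999), which encodes CD45, and Nckap1l (0.996). Itgb2 was most like Gm14699 (0.999), a pseudogene, and then Nckap1l (0.998). The 31-base words shared by Itgb2 and Gm14699 are 36.4% of those of Gm14699 and 2.28% of those of Itgb2, so how reads were divided between them is uncertain. Selplg was most like Gpsm3 (0.995) and Hcst (0.991), Itgam like Ncf4 (0.997) and Gm9025 (0.995), and Itga4 like Elf4 (0.995) and Plekhm3 (0.991). The 10 points share the split into 6 CD45+ and 4 CD45- groups, so these values describe that split as well as anything particular to a gene.

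Cd44 was most like Slc11a1 (0.980) and Rnf149 (0.977), Cxcr4 like Gm14519 (0.985) and Sdcbp (0.981), and Itgax like the member Cxcr4 (0.953) and Btg1-ps1 (0.951). Icam1 was most like Impact (0.945) and Pofut2 (0.940). Within the list, Itgam and Itgb2 had r = 0.994 and Itgal and Itgb2 0.993, and Icam1 had -0.211 to 0.165 with the other 8.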

How the data were processed

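RNA from cells sorted by flow cytometry was amplified, and libraries were sequenced and mapped by the authors to mouse genome mm10 with Bowtie 2 (version not given in the sources used here). The authors counted reads per Ensembl gene, and the deposited expected counts were not normalized, with 99.6% of nonzero values not whole. The authors also deposited RPKM values, whose denominator was 0.65 to 1.57 times that given by the summed gene counts. The annotation release, the treatment of reads with several matches and the use of strand are not given in the sources used here.

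Members and lists were chosen with earlier results of these data known. Counts were rounded, filtered with filterByExpr and normalized by TMM, and each comparison of 4 against 4 libraries (16 for the interaction) was fitted over all genes in edgeR 4.0.16 (quasi-likelihood F test, robust; R 4.3.3). Genes were called at a Benjamini-Hochberg adjusted p below 0.05 with a log2 fold change beyond 1.5 either way. Levels are given in RPKM with SD, n = 4. The 60 pairs of replicates differed by 21.5 to 852.4 times the counting variance, so none was counted as 1 library. The test was tried on simulated data.

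Alternatives were DESeq2 1.42.0, limma-voom (limma 3.58.1), size factors of the RLE kind, a filter of at least 10 counts per library or none, removal of mitochondrial genes, all 40 libraries in 1 fit, the replicate number as a block, limma on log2(RPKM + 1) and log2(RPKM + 0.1), no fold threshold and leaving out each library. The animal as a block was tried for tumor neutrophils against monocytes. Added after the data were seen were array weights and the removal of 2 stromal libraries. The 9 members were named in every comparison, and from the lists up to 3 called genes in each direction with the largest change and a mean log2 CPM of at least 1. Marker sums add the RPKM of fixed cell type lists.

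Same-numbered libraries were correlated in their deviations from the group means. The values ran from -0.26 to 0.25 and in no comparison exceeded 0.1 for every number, and for the 3 animals that gave both tumor neutrophils and monocytes they were -0.054, -0.028 and 0.037. Sequences and promoters are RefSeq's. A gene that the rule for named pathway genes picked is not reported here.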

Additional observations from a re-analysis of the deposited data

Results flagged for a closer look

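Each of the 90 sets of 4 libraries (9 genes in 10 groups) was examined for 1 library far from the other 3, and 5 had one, about as many as chance gives at 1 in 20. Itgam was at 73.1 RPKM in healthy blood neutrophil library 3, below 91.1 to 94.2 in the others. Itgb2 was at 0.119 RPKM in tumor epithelial library 3, above 0.0536 to 0.0642. Cd44 stood apart in 3 groups, at 90.0 RPKM in blood monocyte library 2 of tumor-bearing mice (others 41.9 to 48.3), 2.10 RPKM in healthy colon epithelial library 4 (others 12.3 to 13.6) and 21.2 RPKM in healthy colon stromal library 4 (others 7.20 to 8.97).

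For 2 members the step from blood to tumor was not the same in both myeloid cell types. The blood here is that of tumor-bearing mice. The difference was 4.68 on the log2 scale for Icam1 (edgeR adjusted p = 0.00427), which was higher in all 4 tumor than in all 4 of these blood libraries of both cell types. It was -2.56 for Itgax (edgeR adjusted p = 0.0211), which was also higher in all tumor than in all of these blood libraries of both cell types. Healthy blood neutrophils had 5.52 to 8.28 RPKM of Itgax, which overlapped the 2.45 to 7.22 of tumor neutrophils.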

How the results depend on the processing

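Of 1526 fold changes of members recomputed under the alternatives, 1371 kept their direction and their side of the threshold, 44 lost and 39 gained a call, and 72 changed sign, none of which was called before or after. The Icam1 calls in tumor neutrophils and in the interaction, and those of Itgax, Cd44 and Cxcr4 in tumor monocytes, were kept under every alternative run and with any library left out. The cause of the changes below was not tested.

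For tumor against blood neutrophils the number of called members went from 1 to 2 on log2(RPKM + 0.1), which added Itga4, and to 3 with array weights, which added Itgax and Itga4, and was 1 to 2 with a library left out. For monocytes it went from 4 to 3 with all 40 libraries in 1 fit, which lost Icam1, and to 5 on log2(RPKM + 0.1) and with no fold threshold, which added Itga4. On log2(RPKM + 1) Itga4 took the place of Icam1, and with a library left out it was 3 to 4. For blood neutrophils of tumor-bearing against healthy mice it went from 2 to 1 with no filter and to 0 with all 40 libraries in 1 fit and on log2(RPKM + 1), and was 1 to 2 with a library left out. In blood monocytes it went from 0 to 1 with DESeq2. In epithelium it went from 2 to 1 with limma-voom, no filter, the replicate block, log2(RPKM + 1) and log2(RPKM + 0.1), and to 0 with at least 10 counts in every library, where Icam1 was not tested, and was 0 to 2 with a library left out. In stroma it went from 0 to 1 with limma-voom, 4 with DESeq2, 3 with all 40 libraries, 2 with the replicate block and 3 without tumor stromal libraries 1 and 2, and was 0 to 2 with a library left out. For healthy neutrophils against monocytes it went from 4 to 8 with no fold threshold to 2 on log2(RPKM + 1) and to 3 on log2(RPKM + 0.1). For tumor neutrophils against monocytes it went from 1 to 2 on log2(RPKM + 0.1), with the animal as a block and with array weights, and was 0 to 2 with a library left out. In the interaction it went from 2 to 1 with all 40 libraries, to 3 with limma-voom, DESeq2, at least 10 counts, the replicate block and log2(RPKM + 0.1), which added Cxcr4, and had Cxcr4 in place of Itgax on log2(RPKM + 1), and was 1 to 3 with a library left out.

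Same-numbered libraries came from 1 animal in tumor neutrophils and monocytes (numbers 2 to 4) and in tumor and blood monocytes (number 1), and shared an animal in healthy neutrophils and monocytes (number 4). In the interaction, blood neutrophils and monocytes came from 1 animal for numbers 1 and 4 and shared 1 for number 3. The other same-numbered libraries that were compared shared only a number, and animals shared across numbers are not paired by the block. In stroma the block used the labels' numbers 1, 2, 3 and 3. The replicate block changed the members called in epithelium, stroma and the interaction. In the same fits the block reversed Itgal in blood monocytes (-0.14), Cxcr4 in epithelium (0.48) and stroma (-0.11), Itga4 in stroma (-1.19) and the interaction (-0.18), Itgax in tumor neutrophils against monocytes (-0.097) and Selplg in the interaction (-0.068).

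Other signs that changed, none of them called, were these. limma-voom gave -0.11 for Itgal in blood monocytes, 1.23 for Cxcr4 in epithelium, -0.51 for Itga4 in stroma, -0.15 for Itgax between tumor neutrophils and monocytes and, in the interaction, -0.35 for Selplg, -0.14 for Itgal and -0.45 for Itga4. log2(RPKM + 1) and log2(RPKM + 0.1) gave -0.23 and -0.24 for Itgal and -0.056 and -0.058 for Cd44 in blood monocytes, 0.26 and 0.90 for Cxcr4 in epithelium, -0.14 and -0.63 for Itga4 in stroma, and, between tumor neutrophils and monocytes, -0.51 and -0.61 for Itgax, -0.45 and -0.46 for Cxcr4 and -0.31 and -0.32 for Cd44. In the interaction log2(RPKM + 1) gave -0.084 for Selplg and log2(RPKM + 0.1) -0.028 for Itga4. At least 10 counts gave -0.016 for Cd44 in blood neutrophils and -0.18 for Itgax and -0.014 for Cxcr4 between tumor neutrophils and monocytes, where no filter gave -0.11 and all 40 libraries -0.11 for Itgax. DESeq2 and RLE size factors gave 0.029 each for Itga4 between healthy neutrophils and monocytes, and dropping tumor stromal libraries 1 and 2 gave 0.46 for Icam1.

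With a library left out, signs changed within -0.37 to 0.14 for Itgam in tumor against blood neutrophils and -0.14 to 0.25 for Cd44 in blood neutrophils. In blood monocytes the ranges were -0.19 to 0.66 for Icam1, -0.43 to 0.25 for Itgal, -0.24 to 0.22 for Cd44, -0.38 to 0.013 for Itgb2 and -0.11 to 0.0081 for Itga4. They were -2.61 to 0.15 for Itgal and -1.11 to 0.71 for Cxcr4 in epithelium, -0.21 to 0.78 for Itga4 and -0.87 to 0.0017 for Icam1 in stroma, -0.11 to 0.095 for Itga4 between healthy neutrophils and monocytes, -0.14 to 0.26 for Itgax and -0.21 to 0.44 for Cxcr4 between tumor ones, and -0.92 to 0.43 for Itga4, -0.26 to 0.42 for Selplg and -0.23 to 0.56 for Itgal in the interaction.

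Over all genes, log2(RPKM + 0.1) moved the share of calls that were higher from 72.9% to 59.6% for tumor neutrophils, 66.6% to 46.6% for tumor monocytes, 48.8% to 74.1% for epithelium, 40.3% to 24.6% for stroma, 45.0% to 22.8% for healthy and 62.4% to 32.4% for tumor neutrophils against monocytes.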
